A study of Mus musculus with 3 samples.

Results

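The MHC class II presentation genes of mouse intestinal epithelium were described in 3 RNA sequencing libraries, 1 from each region. The members were taken by gene symbol, and all 8 of them (Cd74, H2-Aa, H2-Ab1, H2-Eb1, H2-DMa, H2-DMb1, H2-DMb2 and Ciita) were found among the 24346 genes listed. The libraries were made from epithelial cells of the large intestine, the upper small intestine and the lower small intestine, detached from opened bowel with EDTA and not described as sorted. They are called large, upper and lower where values are listed. The labels give no age, genotype or treatment for any library and do not say how many animals each stands for. Only the upper small intestinal sample has a label for strain, and it names the CRC mouse model MC38, a colorectal cancer model. If that entry is right, an effect of strain and one of region cannot be told apart wherever that library is compared, whereas the comparison of large with lower small intestine does not use it.

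MHC class II molecules are pairs of an alpha and a beta chain that carry peptides from internalised proteins to the cell surface, where CD4+ T cells read them. The invariant chain, encoded by Cd74, blocks the groove during transport, and the DM heterodimer then helps exchange its last fragment for a peptide. The coactivator CIITA, which interferon-gamma induces in many cells, switches the whole set on together with factors bound to shared promoter elements called the X and Y boxes. In the gut, class II is carried by professional antigen-presenting cells and also by enterocytes, mainly of the small intestine.

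Promoter stretches are shown because the members' levels differed together between libraries and class II genes are known to share these elements. RefSeq windows (GRCm38.p6, the assembly of the mm10 build) of 300 bases, from 250 before to 50 after an annotated start, were available for 5 of the 8 members. The letters TGATTGG, the core of the Y box, were searched on both strands and found in the windows of H2-Aa, H2-Eb1, H2-DMb1 and H2-DMb2. The letters GATGATG, from the end of the X box and the element beside it, were found in the last 3 of these, with no overlap of the Y box letters. Each line gives 60 bases, 5′ to 3′ on the strand of the gene, with the matches in capitals.
H2-Aa: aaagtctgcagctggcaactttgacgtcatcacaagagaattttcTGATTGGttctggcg
H2-Eb1: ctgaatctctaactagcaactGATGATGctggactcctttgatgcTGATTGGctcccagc
H2-DMb1: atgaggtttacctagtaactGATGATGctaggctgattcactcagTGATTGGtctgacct
H2-DMb2: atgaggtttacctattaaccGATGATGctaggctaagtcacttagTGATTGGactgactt
The stretches lie at chr17:34287859-34287918 on the minus strand for H2-Aa, and on the plus strand at chr17:34305761-34305820 for H2-Eb1, chr17:34153083-34153142 for H2-DMb1 and chr17:34145112-34145171 for H2-DMb2. The Y box letters began 50, 61, 63 and 92 bases before the RefSeq start in the order of the lines. In GENCODE M21, another annotation, the spans of H2-DMb1 and H2-DMb2 start earlier, at 34153072 and 34143307. The stretches of these genes lie inside those spans. Between both matches stood 17 letters in H2-Eb1 and 18 in each of H2-DMb1 and H2-DMb2. Of all 32851 windows of this length, 7.82% held TGATTGG, 3.48% held GATGATG and 0.237% held both. Both sets of letters were chosen with the members' sequences in view, and a match is a description of letters, not of a bound site. The 2 windows of H2-DMa held neither, which says only that these letters are not in these windows.

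Values are taken as FPKM, the sequenced fragments of a gene divided by its transcript length and by a measure of library size. Division by length lets genes be compared with each other. Comparison between libraries rests on the common scale of the deposited values, described under processing, and other scales are tried at the end. With 1 library per region there is no replicate check and no test between regions. Bracketed ranges are 95% Clopper-Pearson intervals from reads implied by the spacing of low values. They cover counting error alone, since no molecular identifiers are described and reads may repeat a molecule. In a transcript of 2 kb, 1 FPKM stood for about 16.7 in large, 14.5 in upper and 21.7 reads in lower. Genes at 1 FPKM or more in either library of a comparison counted as measured in it. A gene was called higher or lower, by size only, at a difference of at least 1 in log2(FPKM + 1), which is a 2-fold ratio of FPKM + 1 and asks for a larger ratio of FPKM in genes of low level. Epithelial RNA was present in all libraries, since all 9 listed epithelial markers were above 1 FPKM. They summed to 7927 in large, 6160 in upper and 8566 FPKM in lower. In the large intestine 2 of them were higher (Krt18 and Krt19) and 1 lower (Vil1) against the upper library, and 2 were lower (Vil1 and Krt20) against the lower. These markers do not show that other cells were absent. The leukocyte gene Ptprc was at 1.725 in large, 12.8 in upper and 15.3 FPKM in lower. In bulk RNA, fewer cells of a type and less RNA per cell cannot be told apart.

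All 8 members were ordered alike in listed values, lowest in the large intestine, intermediate in the upper and highest in the lower small intestine. For H2-DMb2 the step from large to upper is not resolved. It rests on about 0 against 2 reads, the gene was not measured in that comparison, and its counting interval includes equal levels. Their summed level was 129 FPKM in the large intestine, 1420 FPKM in the upper and 2926 FPKM in the lower small intestine. This was 0.0248% in large, 0.205% in upper and 0.453% of all FPKM in lower. The same order of levels held for 20.6% of the 12579 genes that reached 1 FPKM in any library.

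**Figure D1:**
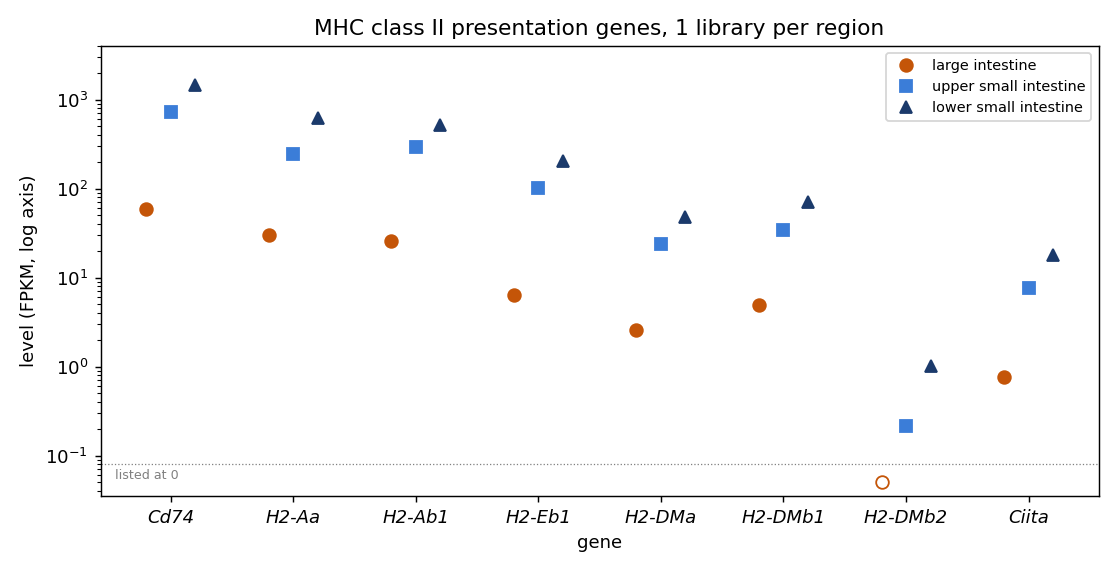
Level of each member in FPKM (log axis) in the libraries of large intestine (circles), upper small intestine (squares) and lower small intestine (triangles), 1 library each; an open symbol at the foot is a gene listed at 0. For every member the circle is lowest and the triangle highest, as for Cd74 at 59.2 in large, 716 in upper and 1453 FPKM in lower. The circle and square of H2-DMb2 stand for about 0 and 2 reads, so their order is not resolved.

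Cd74, which encodes the invariant chain (mm10, chromosome 18, 60803848 to 60812652, plus strand), was the most abundant member in each library. It stood at 59.2 FPKM in the large intestine, 716 FPKM in the upper and 1453 FPKM in the lower small intestine. Among all genes it ranked 1398th in large, 146th in upper and 47th in lower by level. The large intestinal level was 12.1-fold lower than the upper (11.1 to 13.2) and 24.5-fold lower than the lower small intestinal one (22.6 to 26.6).

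The chains of the I-A molecule followed. H2-Aa, the alpha chain, was at 30.1 in large, 242 in upper and 615 FPKM in lower, and H2-Ab1, its beta chain, at 25.6 in large, 294 in upper and 519 FPKM in lower. The alpha to beta ratio was thus 1.18 in the large intestine, 0.822 in the upper and 1.18 in the lower small intestine, and the upper library was the only one in which H2-Ab1 exceeded H2-Aa. H2-Aa in the upper library was 0.393 of its lower small intestinal level (0.371 to 0.417), while H2-Ab1 was 0.567 of it (0.532 to 0.603), and these intervals did not overlap. Against the large intestine the pair parted the same way. H2-Aa was 8.02-fold (6.94 to 9.33) and H2-Ab1 11.5-fold (9.63 to 13.8) lower in the large than in the upper library. Both comparisons share the upper library, so the second restates its alpha to beta ratio and is no separate support. Relative to the lower small intestine, the large intestinal level was 20.4-fold lower (17.8 to 23.6) for H2-Aa and 20.3-fold lower (17.1 to 24.2) for H2-Ab1, with overlapping intervals.

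H2-Eb1, the beta chain of the I-E molecule, showed the steepest differences from the large intestine among the members with a ratio. It was at 6.34 in large, 102 in upper and 202 FPKM in lower. The large intestinal level was 16.0-fold lower than the upper (12.4 to 21.2) and 31.8-fold lower than the lower small intestinal one (24.8 to 41.7). In both comparisons these intervals overlapped those of Cd74, H2-DMa and Ciita, so counting error leaves its first place among the members unresolved. Its partner gene H2-Ea, annotated as the polymorphic pseudogene H2-Ea-ps, was listed at 0 in all libraries, while its beta chain gene was measured in each. Mice of the H-2b haplotype, such as C57BL/6, are known to lack a functional H2-Ea.

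The DM genes, whose products load peptide, were less abundant than the I-A and I-E chains in every library. H2-DMa, the DM alpha chain, was at 2.56 in large, 23.9 in upper and 47.8 FPKM in lower, and H2-DMb1, a DM beta chain, at 4.86 in large, 34.5 in upper and 70.2 FPKM in lower. H2-DMa was 18.7-fold (12.3 to 29.03) and H2-DMb1 14.4-fold (11.1 to 19.2) lower in large intestine than in the lower small intestine. The H2-DMb1 interval lay below that of H2-Eb1 in the same comparison, so the ratios of the members differed by more than counting error. As a percentage of Cd74 in the same library, H2-DMb1 was at 8.21% in the large intestine, 4.82% in the upper and 4.83% in the lower small intestine, and H2-Eb1 at 10.7% in large, 14.2% in upper and 13.9% in lower.

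The second DM beta chain gene, H2-DMb2, was near the limit of detection. It was listed at 0 in the large intestine, where 3 reads would have been 0.254 FPKM, and stood at 0.217 FPKM in the upper and 1.02 FPKM in the lower small intestine. These values stand for about 2 and 16 reads. The gene thus contributed 0.625% and 1.43% of the summed H2-DMb1 and H2-DMb2 level in the upper and lower libraries. The annotated transcripts of both genes are related, and 25.6% of the 50-base stretches of the H2-DMb2 transcript occur unchanged in that of H2-DMb1. Reads may therefore have been shared between them, and the H2-DMb2 value is uncertain in each library. In GENCODE M21 the gene span of H2-DMa also overlaps that of Brd2, on the opposite strand, over 3094 bases. The RefSeq starts of H2-DMa used for the promoter windows lie past the end of Brd2. Which gene models were counted, and whether strand was used, is not given in the sources used here. Brd2 was at 65.2 in large, 57.97 in upper and 63.8 FPKM in lower.

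Ciita, the coactivator gene (chromosome 16, 10480059 to 10528418, plus strand), was at 0.769 in large, 7.62 in upper and 18.03 FPKM in lower. Its order was that of its target genes, at a level below those of Cd74 and of the I-A and I-E chains in each library. It was 1.30% in large, 1.06% in upper and 1.24% of the Cd74 level in lower, so its ratio to Cd74 stayed within a narrow range while both genes differed more than 20-fold between libraries. Ciita in the large intestine was 9.90-fold lower than in the upper (3.94 to 42.2) and 23.4-fold lower than in the lower small intestine (9.77 to 95.3). These intervals use the shortest coding transcript of 680 bases, which gives the fewest implied reads (4 in large, 38 in upper and 133 in lower). The large intestinal level rests on few reads by this count.

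Against the upper small intestine, 7 members were measured in the large intestine and all 7 were lower, where 11.7% of 12350 measured genes were lower by the same rule. None was higher, where 11.2% of genes were. The median difference of the members was -2.96 in log2(FPKM + 1), against 0.00057 over all measured genes, and the members ranged between -3.81 and -2.28. Against the lower small intestine all 8 were measured and lower, where 10.5% of 12376 genes were lower and 9.75% higher. The median was -4.03, against -4.5e-05 over all measured genes, with a range of -4.79 to -1.01. H2-DMb2 was the member at -1.01, just past the rule, and without it the members ran between -4.79 and -3.43. The large intestinal library is shared by these comparisons.

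Between the parts of the small intestine most members differed by a factor close to the rule itself. All 8 had lower levels in the upper than in the lower library, and 4 of 8 passed the rule as lower, Cd74, H2-Aa, H2-DMb1 and Ciita, where 2.92% of 11941 genes were lower and 3.92% higher. The median difference was -0.99 in log2(FPKM + 1), against -0.029 over all measured genes. The lower library exceeded the upper 2.03-fold for Cd74 (1.97 to 2.09) and 1.98-fold for H2-Eb1 (1.83 to 2.14), and H2-DMa differed by -0.97 in log2(FPKM + 1). Which of these 3 genes passed the rule was thus set by differences smaller than counting error. H2-Aa was clearly past the rule at a difference of -1.34 and H2-Ab1 short of it at -0.82. H2-DMb2 was 4.69-fold higher in FPKM in the lower than in the upper library, with a wide interval (1.26 to 47.99), and at its low level this came to a difference of -0.73, short of the rule.

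**Figure D2:**
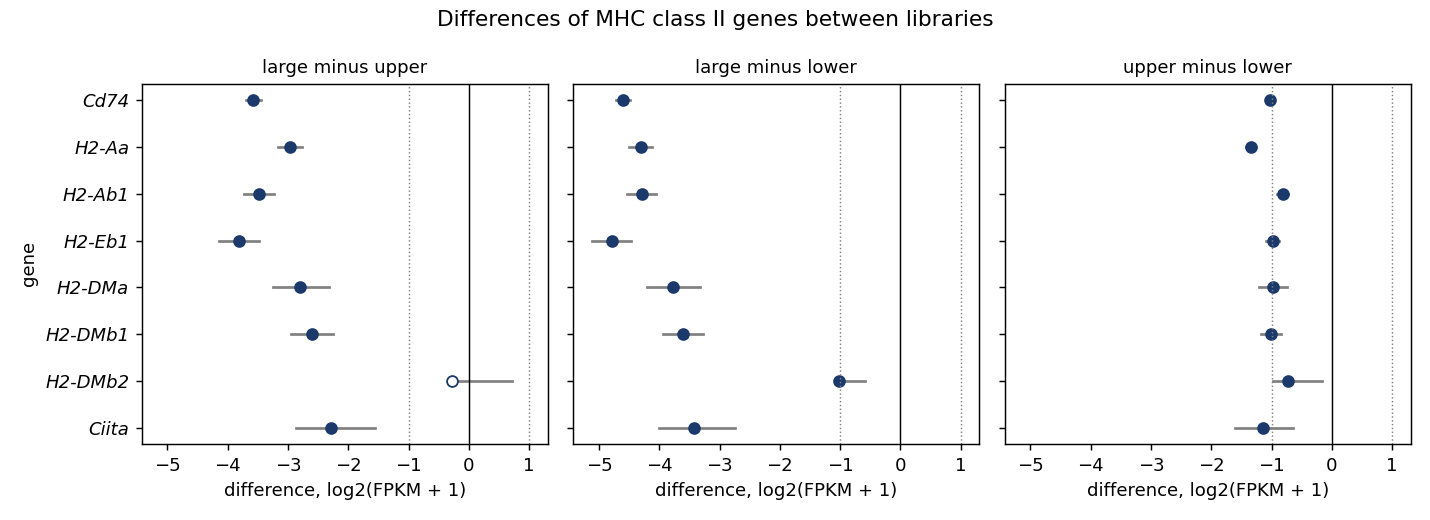
Difference of each member in log2(FPKM + 1) for large minus upper, large minus lower and upper minus lower; bars are 95% counting intervals, dotted lines mark the 2-fold rule and an open symbol a gene that was not measured in that comparison. The members lie between -3.81 and -2.28 in the first panel, H2-DMb2 aside, and between -1.34 and -0.73 in the third.

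Of the 8 members, 6 lie within 197 kb of chromosome 17, so the other genes of that interval were read beside them. From Brd2 to Btnl2 the files list 15 genes. Psmb9, Psmb8, Tap1 and Tap2, which make and import peptides for MHC class I, stand between H2-DMb1 and H2-Ab1. Psmb9 was at 18.6 in large, 118 in upper and 152 FPKM in lower, and its difference from the lower library was -2.96 in the large intestine and -0.36 in the upper. Tap2 was at 13.3 in large, 33.9 in upper and 32.7 FPKM in lower. These genes were lower in the large intestine like the members, but none of the 4 passed the rule between the parts of the small intestine. H2-Ob, the DO beta chain, which modulates DM mainly in B cells, was listed at 0 in the large intestine and stood at 0.153 FPKM in the upper and 1.47 FPKM in the lower library. H2-Eb2 stayed under 1 FPKM at 0.069 in large, 0.198 in upper and 0.477 FPKM in lower. H2-Oa, the DO alpha chain, which lies outside the interval, did so too, at 0 in large, 0.149 in upper and 0.3 FPKM in lower. At the edges of the interval, Brd2 differed by -0.14 to 0.17 in log2(FPKM + 1) over the 3 comparisons, and the butyrophilin-like gene Btnl2 was highest in the upper library, at 1.94 in large, 97.6 in upper and 44.1 FPKM in lower.

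**Figure D3:**
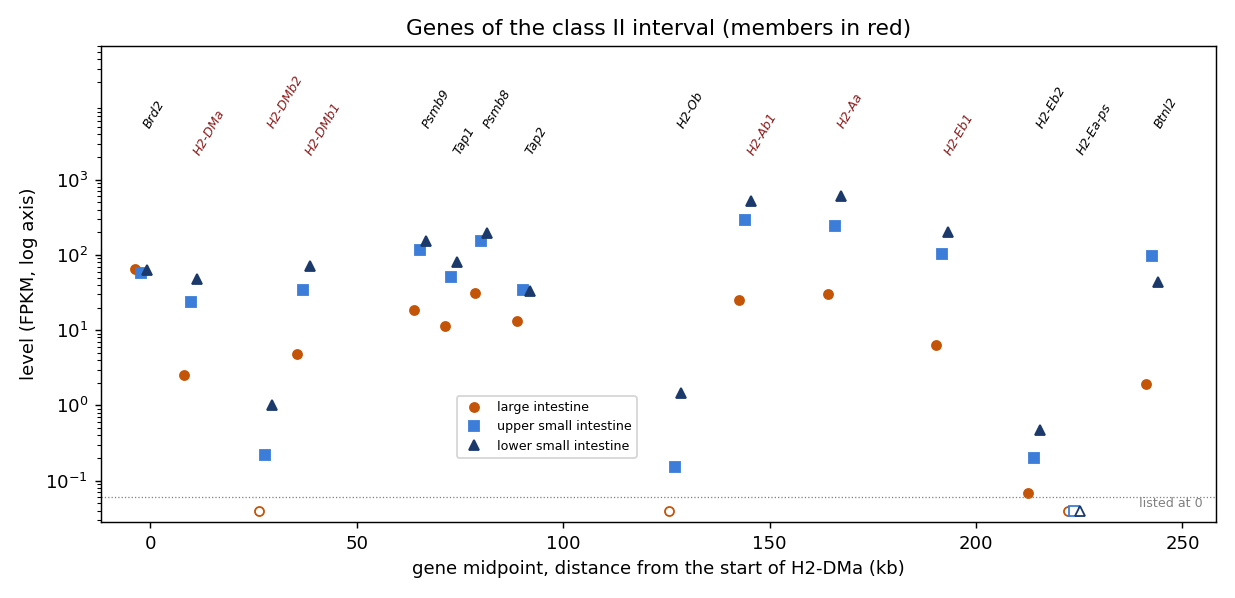
Level in FPKM (log axis) of the 15 genes of the class II interval against the distance of the gene midpoint from the start of H2-DMa in kb, with symbols for the libraries as in the legend, set slightly apart, and members named in red; open symbols are genes listed at 0. Members and the class I loading genes between them are lowest in the large intestine, whereas Brd2 lies between 57.97 and 65.2 FPKM.

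Genes outside the members were then read along the pathway. The promoter-binding factors that work with CIITA did not share the size of the members' differences. None of the 7, the RFX subunits Rfx5, Rfxank and Rfxap, the NF-Y subunits Nfya, Nfyb and Nfyc, and Creb1, passed the rule in any comparison. Their median differences were -0.012 for large against upper, -0.047 for large against lower and -0.11 for upper against lower. Rfx5 was at 5.28 in large, 4.54 in upper and 4.96 FPKM in lower. The members' order of levels held for 3 of the 7, Nfya, Nfyb and Nfyc, with small differences.

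Genes of interferon-gamma signalling did not all share the members' pattern. The receptor genes Ifngr1, at 112 in large, 65.3 in upper and 78.5 FPKM in lower, and Ifngr2, at 71.7 in large, 68.9 in upper and 61.9 FPKM in lower, did not pass the rule in any comparison. In the large intestine 2 of the 6 genes read on this list, Jak2 and Socs1, were lower than in the upper library. Another count of 2, Irf1 and Socs1, were lower than in the lower library, and none was higher in either comparison. The kinase gene Jak2 was highest in the upper library, at 21.4 in large, 45.6 in upper and 33.8 FPKM in lower. Its difference in large against upper was -1.06. Irf1, which acts on the Ciita promoter, was at 80.6 in large, 148 in upper and 209 FPKM in lower, past the rule only against the lower library, at -1.36. Socs1, a feedback inhibitor, was at 1.45 in large, 6.08 in upper and 11.5 FPKM in lower. Ifng itself was at 0.218 in large, 1.005 in upper and 2.44 FPKM in lower, in the order of the members. It belonged to a list of 8 lymphoid genes, of which the 3 measured against the upper library did not reach the rule and 2 of 4 were lower against the lower one, Ifng and Il7r. None of the 6 signalling genes passed the rule between upper and lower small intestine.

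**Figure D4:**
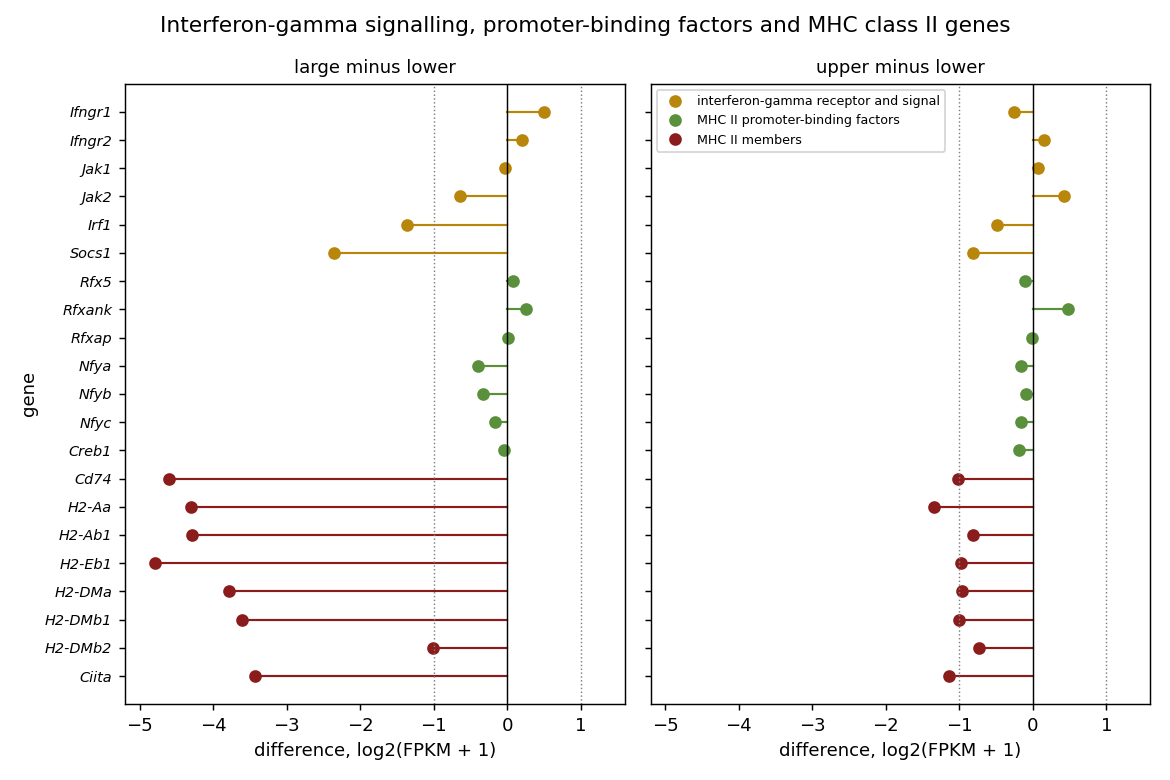
Difference in log2(FPKM + 1) of large minus lower (left) and upper minus lower (right) for genes of interferon-gamma signalling, promoter-binding factors and the members; dotted lines mark the 2-fold rule. The promoter-binding factors lie within the dotted lines in both panels, while all members lie at -1.01 or below in the left panel.

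Most of the 22 listed genes that interferon-gamma induces were also lower in large intestine. Against the upper library 13 of 21 measured genes were lower and 2 higher (median -1.06), where 11.7% of all measured genes were lower and 11.2% higher. Against the lower library 19 of 22 were lower and none higher (median -1.68), where 10.5% were lower and 9.75% higher. Between upper and lower small intestine 7 of 22 were lower and none higher (median -0.69), where 2.92% were lower and 3.92% higher. The list includes Psmb8, Psmb9, Tap1 and Tap2 of the class II interval. The immunoproteasome genes Psmb10 and Psmb8 were at 79.8 in large, 168 in upper and 171 FPKM in lower and at 31.0 in large, 155 in upper and 194 FPKM in lower. Ubd, a ubiquitin-like modifier, was at 2.24 in large, 26.7 in upper and 140 FPKM in lower. Nlrc5, the class I counterpart of Ciita, was at 0.728 in large, 5.75 in upper and 9.07 FPKM in lower.

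Peptide processing genes did not follow the members as a list. The large intestine had 2 of 10 measured genes higher and 1 lower against the upper library (median 0.078), and 2 higher with none lower against the lower library (median 0.37). Ctss, the protease that trims the invariant chain in antigen-presenting cells, was highest in the large intestine at 233 in large, 104 in upper and 115 FPKM in lower. Ctsl, a related protease, was also highest there, at 47.8 in large, 16.7 in upper and 12.7 FPKM in lower. Ifi30, a thiol reductase of the endosome, was at 118 in large, 192 in upper and 132 FPKM in lower. Ctsz was the gene called lower against the upper library, at 69.7 in large, 163 in upper and 133 FPKM in lower. Ligands that modulate T cell activation were scarce. The list held 8 genes, among them Cd274 and Pdcd1lg2, which encode the inhibitory ligands PD-L1 and PD-L2. Icosl and Cd274 reached 1 FPKM, and Cd274 was lower in large and in upper than in lower. Cd80 was at 0.073 in large, 0.925 in upper and 0.451 FPKM in lower and Cd86 at 0.047 in large, 0 in upper and 0.505 FPKM in lower.

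Because professional antigen-presenting cells carry class II, their markers were set beside the members. All 5 leukocyte genes were lower in large intestine in both comparisons, and they summed to 8.87 in large, 59.9 in upper and 83.2 FPKM in lower. B cell markers summed to 0.144 in large, 2.16 in upper and 8.505 FPKM in lower over 9 genes, of which 6 were listed at 0 in the large intestine and 1 in the upper library. None of them was measured against the upper library, and 2 of 3 measured, Cd79a and Cd79b, were lower in large than in lower and in upper than in lower. Ms4a1 was at 0 in large, 0.136 in upper and 0.455 FPKM in lower. Of 10 dendritic cell markers, which summed to 1.55 in large, 21.7 in upper and 23.3 FPKM in lower, Itgae, which T cells of the epithelium also carry, supplied most of the level, at 1.05 in large, 16.1 in upper and 16.3 FPKM in lower. Itgax, at 0.228 in large, 3.78 in upper and 4.21 FPKM in lower, and Itgae were the measured genes against the upper library, both lower in large intestine. Against the lower library Ccr7 was lower as well, so that 3 of 3 were. Ccr7 was at 0 in large, 0.219 in upper and 1.52 FPKM in lower. Of the rest of the list, Flt3, Zbtb46, Xcr1, Clec9a and Cd209a stayed at or below 0.208 FPKM in all libraries. Batf3 reached 0.747 FPKM in upper, with 0 in large and 0.167 in lower. Siglech reached 0.576 FPKM in lower, with 0.1 in large and 0.172 in upper. The part of such cells in the members' levels was not tested.

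The 12 macrophage markers summed to 39.1 in large, 73.7 in upper and 52.8 FPKM in lower. Lower in large intestine were 2 of 6 measured against the upper and 5 of 9 against the lower library, with Cd14 higher in both. Most of this came from Mertk, at 19.5 in large, 53.9 in upper and 22.02 FPKM in lower, and Cd14, at 15.7 in large, 5.61 in upper and 6.07 FPKM in lower. Csf1r was at 0.119 in large, 0.65 in upper and 1.47 FPKM in lower and C1qa at 0.749 in large, 1.87 in upper and 4.42 FPKM in lower, in the order of the members. That order held for 10 of the 12 markers, all but Mertk and Cd14, and for 20.6% of genes at 1 FPKM in any library. The sets are unlike, since Adgre1, Cx3cr1 and Fcgr1 stayed under 1 FPKM in all libraries. The order also held for all 5 leukocyte genes, 8 of 9 B cell markers and 18 of 22 interferon-gamma-induced genes, but for 4 of 10 dendritic cell markers. Only 3 of the 12 macrophage markers reached 1 FPKM in the large intestine. T cell markers summed to 13.8 in large, 551 in upper and 555 FPKM in lower over 9 genes, all 9 lower in large intestine against the lower library and 7 of 8 measured against the upper. Most of the sum in upper and lower came from Gzma, at 3.09 in large, 357 in upper and 334 FPKM in lower. Between upper and lower small intestine the T cell markers had a median difference of 0.077, with 1 of 9 lower, where the members had a median of -0.99. The marker called lower was Cd4, at 0.038 in large, 0.478 in upper and 2.24 FPKM in lower. It was in the order of the members, which held for 4 of the 9 T cell markers. The part of macrophages and T cells in the members' levels was not tested either.

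**Figure D5:**
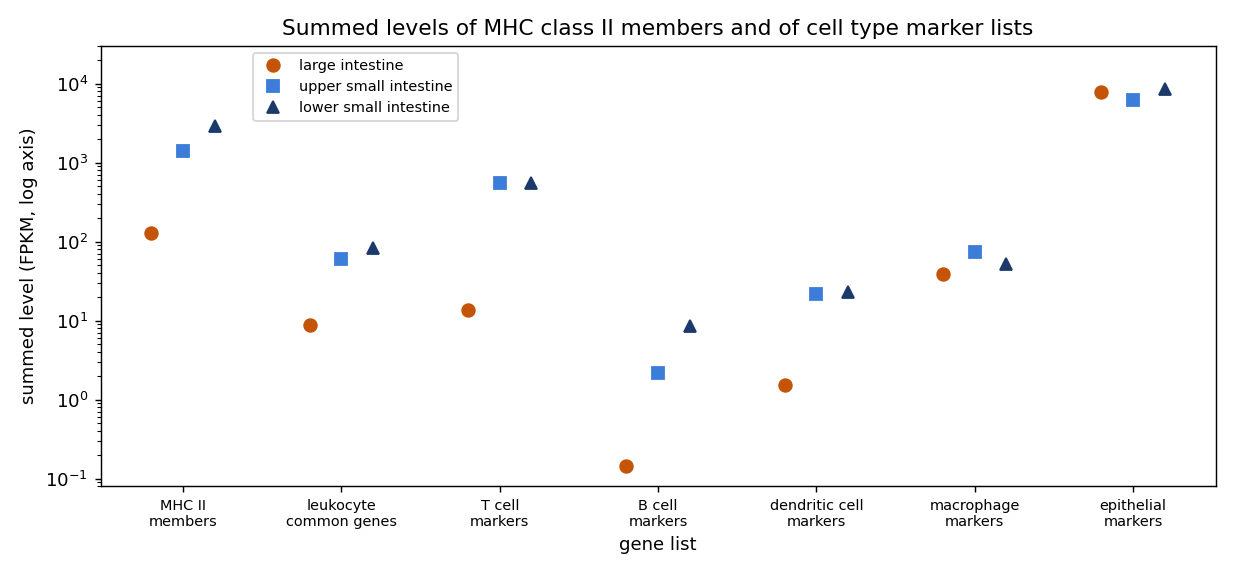
Summed level in FPKM (log axis) of the 8 members and of the marker lists in the libraries of large, upper small and lower small intestine, 1 point per library. Members and leukocyte, T cell, B cell, dendritic cell and macrophage lists are lowest in the large intestine, the macrophage list being highest in the upper library. Epithelial markers lie between 6160 and 8566 FPKM.

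The 10 genes nearest to the members in profile were found by Euclidean distance between log2(FPKM + 1) values centred on each gene's mean, over the 3 libraries. The reference profile was the mean of the 7 members measured in every comparison, and 12473 genes were searched. The members themselves lay 0.217 to 0.606 from it. Nearest was Gp1bb, a platelet glycoprotein chain, at a distance of 0.0959, with 1.81 in large, 20.5 in upper and 45.96 FPKM in lower. The antimicrobial lectin gene Reg3b followed at 0.257, and the tryptophan-degrading enzyme gene Ido1, which interferon-gamma induces, at 0.307, with a large minus lower difference of -4.27 in log2(FPKM + 1). The others, in order of distance up to 0.466, were Rbp7, Fam84a, Mcpt1, Pla2g2a, Tnfaip8l2, Npl and Habp2. With 3 points per profile many genes can lie this close, and 3 of these 10 (Tnfaip8l2, Npl and Habp2) were listed at 0 in the large intestine.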

How the data were processed

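The deposited values, 1 per gene and library, were taken as FPKM. This unit was inferred, since the file headers name no unit and among the tools listed per the submitters' processing notes (Bowtie2 2.2.3, SAMtools 0.1.19, TopHat2 2.0.13, Cufflinks 2.2.1) only Cufflinks quantifies. The notes name the build mm10, while gene models, filters and the strand setting are not given. The deposited libraries shared a common scale, the median gene standing at 1.004, 0.999 and 1.007 times its geometric mean over libraries in the large, upper and lower libraries, while their sums were 521651, 693218 and 646262 FPKM. An exact 0 can be a failed estimate.

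Differences were taken as log2(FPKM + 1), first library minus second, which understates differences of low genes. No test was made, with 1 library per region. Reads were implied from the spacing of FPKM times length in genes whose only transcript measures 1500 nt or more. Of 359, 372 and 371 low values in the large, upper and lower libraries, 75.5%, 74.7% and 76.5% fell within 0.15 of a whole read. The spacing was fitted to these same values, so these shares are descriptive. Members' reads used the shortest coding transcript in GENCODE M21, the source of coordinates. Calculations (Python 3.11.15, NumPy 2.4.6, pandas 2.3.3, SciPy 1.17.1) were tested on simulated data. The members, the 14 gene lists, the motif letters and the rule for named genes (all listed genes, with leading examples by mean level, and the 10 nearest profiles) were chosen with earlier results of these data known. Of the listed symbols, Marchf1, Marchf8, Trac and H2-Ea matched no row, and March1, March8 and H2-Ea-ps were used for their genes. Of the genes first listed, 2 were left out of the lists afterwards and are not reported here.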

Additional observations from a re-analysis of the deposited data

How the results depend on the processing

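The counts of members higher (none in each comparison) held under all alternatives run. Large against upper kept 7 members lower under every alternative, and large against lower kept 7 or 8, H2-DMb2 being the member at the rule. Upper against lower was the unstable count. Of 8 measured, 4 were lower as reported, 2 with a pseudocount of 5, none (0) with a 3-fold size rule, 5 with a pseudocount of 0.1 and 6 after rescaling of the libraries to one upper quartile. H2-DMb2 was no longer measured after rescaling to one sum, where 6 of 7 were lower, or to one sum without short RNA genes, where 5 of 7 were. The counting intervals of the FPKM ratio between these libraries include 2 for all members except H2-Aa (2.40 to 2.70) and H2-Ab1 (1.66 to 1.88). Rescaling to the same sum moved the median of all genes to 0.37 for large against upper, 0.28 for large against lower and -0.12 for upper against lower. The members' medians were then -2.56, -3.99 and -1.10. All 155 recomputed differences of single members stayed below 0, and 123 of them stayed inside the counting interval of the reported value. Alternatives that change only the filter leave a member's difference as it was, so their values are among the 123 by construction. No paired analysis was possible because each region has 1 library. Leaving out a replicate was not possible for the same reason. Depth limits H2-DMb2 in every library and Ciita in the large intestine.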

Other observations

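A pair of genes on the list of interferon-gamma-induced genes ran against the members in the upper small intestine. The guanylate-binding protein gene Gbp2 was at 10.48 FPKM in the large intestine, 2.40 FPKM in the upper and 11.6 FPKM in the lower small intestine. Iigp1, an immunity-related GTPase, was at 4.80 in large, 0.781 in upper and 8.47 FPKM in lower. Both were lowest in the upper library, where the members were intermediate, and they were the only 2 of 21 measured genes on that list that were higher in the large than in the upper library. Cxcl10, a chemokine gene of the same list, was at 1.34 in large, 1.97 in upper and 6.59 FPKM in lower, with the lower library standing above both others. Cd274, which encodes PD-L1, stood at 1.65 in large, 2.34 in upper and 9.78 FPKM in lower, which passed the rule as lower in the large and in the upper library against the lower one. These genes were singled out after their values were seen.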
